A study of Mus musculus with 6 samples.

Results

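Hepcidin, the transferrin receptor and red cell genes were followed liver by liver in aged mice with and without hepatocyte SIRT2. The set comprised 8 of the 205 genes with a deposited liver value, namely the 2 hepcidin genes Hamp and Hamp2, the transferrin receptor gene Tfrc, the red cell membrane gene Slc4a1, and every listed gene whose symbol starts with Hba- or Hbb- (Hba-a1, Hba-a2, Hbb-bs and Hbb-bt). The 8 genes were chosen by their measured values in these same livers, because hepcidin was low where globin and transferrin receptor transcripts were high. Their differences between groups are therefore a description and carry no test. Values are FPKM, fragments scaled by transcript length and by the fragments of the library, so levels can be compared between genes, whereas the number of reads behind each value is unknown.

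Livers came from 6 mice of 18 months of age on a C57BL/6 background, 3 LoxP and 3 SIRT2-KOhep, with 1 library per mouse. Both groups were SIRT2flox/flox. The LoxP controls were Alb-Cre- and the SIRT2-KOhep mice were Alb-Cre+, with Cre driven by the albumin promoter. The authors describe the deletion as hepatocyte-specific, and which liver cells kept the gene cannot be told from these bulk values. The labels call the groups WT and KO, and the sex of the 6 mice is not given in the sources used here. The table is itself a selection, with 154 genes higher and 51 lower in SIRT2-KOhep livers, so a gene that is not listed has no known level. Sirt2 was at 26.54, 28.57 and 25.78 FPKM in LoxP mice 1 to 3 and at 7.21, 8.45 and 8.58 FPKM in SIRT2-KOhep mice 1 to 3, as labelled. Of 26 hepatocyte markers only Cyp7a1 was listed, so the labelled tissue could be checked little. Cyp7a1 was at 81.61, 7.06 and 24.01 FPKM in LoxP mice 1 to 3 and at 24.45, 6.0 and 2.41 FPKM in SIRT2-KOhep mice 1 to 3. It was thus within the LoxP range in SIRT2-KOhep mouse 1 and below it in mice 2 and 3. Mup7, a major urinary protein gene of hepatocytes, was at 11874, 16702 and 19020 FPKM in LoxP mice 1 to 3 and at 8638, 1724 and 12355 FPKM in SIRT2-KOhep mice 1 to 3, so it was present in all 6 livers but below every LoxP mouse in SIRT2-KOhep mice 1 and 2. These are also the livers with little Hamp. Other genes that hepatocytes express went the other way there. Of 12 listed acute phase genes, 9 were above every LoxP mouse and 1 below in mouse 1, and 12 were above in mouse 2. Over all 205 genes, 49.8% were above every LoxP mouse and 21.5% below in mouse 1, and 67.8% were above in mouse 2. The part of hepatocyte content in the values of Hamp was not tested. SIRT2-KOhep mouse 2 stood apart, holding the top value of its group in 108 of the 154 higher genes. Across the table, limma called 0 of 205 genes (0%) at an adjusted threshold of 0.05 and 22 genes (10.7%) at an unadjusted one, while without its trend it called 1 gene, Sirt2.

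Hepcidin is a small peptide hormone that hepatocytes secrete. It binds ferroportin, the iron exporter of gut, macrophage and liver cells, and thereby holds iron back from plasma. Its gene is switched on by iron through bone morphogenetic proteins and SMAD factors and by interleukin-6 through STAT3, and it is switched off when the marrow makes more red cells. The transferrin receptor brings iron bound to transferrin into cells, and its mRNA is stabilised in iron-poor cells by iron regulatory proteins that bind hairpins in the 3′ untranslated region. Globins and band 3 (Slc4a1) are products of red cells and their precursors, and in adult liver their mRNA comes with blood or with any precursors lodged there.

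Hamp (Gene ID 84506) lies on chr7:30942368-30944032 of GRCm38, the build called mm10, on the minus strand. In GENCODE M21 it is spliced from 3 exons. Hamp2 (Gene ID 66438) lies 17686 bases away on the same strand, at chr7:30922372-30924681, also with 3 exons. The coding sequences of the pair are 92.55% identical, and their promoters, compared without gaps, share 227 of 247 bases (91.9%). The stretches before the RefSeq start are shown because this is where the hormone's known inputs act. The gene span of Hamp2 reaches further upstream because it includes another transcript, with a start of its own, and the stretch shown lies before the first exon of the others. They are RefSeq sequences of GRCm38.p6, read 5′ to 3′ on the minus strand from chr7:30944033-30944169 for Hamp and chr7:30924182-30924321 for Hamp2. Capitals mark GGCGCC, the core of a bone morphogenetic protein response element, and TTCNNNGAA, the paired half-sites that STAT factors recognise, where N is any base.
Hamp: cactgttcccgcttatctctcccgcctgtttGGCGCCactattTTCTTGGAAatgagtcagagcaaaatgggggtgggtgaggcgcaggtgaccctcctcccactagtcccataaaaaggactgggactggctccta
Hamp2: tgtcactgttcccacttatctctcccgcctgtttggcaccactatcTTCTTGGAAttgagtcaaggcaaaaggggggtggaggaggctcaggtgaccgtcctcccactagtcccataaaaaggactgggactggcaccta
In the 250 bases before the start, searched on both strands, GGCGCC occurred once in Hamp, with its first base 109 bases before the start, and not in Hamp2. TTCNNNGAA occurred once in each, 97 bases before the start in Hamp and 94 in Hamp2. Among 27025 RefSeq promoters, 9.54% held GGCGCC and 7.18% held TTCNNNGAA in the same window. These are matches of letters and not measured binding.

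Hamp was lower in 2 of the 3 SIRT2-KOhep livers and at the LoxP level in the other. LoxP mice 1 to 3 had 224.6, 58.98 and 182.25 FPKM, and SIRT2-KOhep mice 1 to 3 had 12.36, 3.03 and 136.44 FPKM. SIRT2-KOhep mice 1 and 2 lay below every LoxP mouse, whereas mouse 3 lay between LoxP mice 2 and 3, so the groups overlapped. The LoxP mean of 155 ± 86.0 FPKM (SD, n = 3) was 51.2 times the level in SIRT2-KOhep mouse 2, 12.6 times that in mouse 1 and 1.14 times that in mouse 3. The SIRT2-KOhep mean was 50.6 ± 74.5 FPKM (SD, n = 3), an average of unlike livers that describes none of them. On the log2(FPKM + 1) scale the difference between group means was -2.80 (standard error 1.30), which placed Hamp first of the 51 lower genes. Leaving out SIRT2-KOhep mouse 3 gave -4.21, and leaving out mouse 2 gave -1.66. The spread within genotypes was wide as well, since the highest LoxP mouse had 3.81 times the lowest and the highest SIRT2-KOhep mouse 45.0 times the lowest.

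Hamp2, the second mouse hepcidin gene, was much scarcer and did not follow Hamp in every liver. Its FPKM was 6.78, 10.47 and 2.78 in LoxP mice 1 to 3 and 0.17, 1.24 and 4.36 in SIRT2-KOhep mice 1 to 3. The same SIRT2-KOhep mice, 1 and 2, lay below every LoxP mouse, and mouse 3 lay within the LoxP range. The order of the low pair was exchanged, however, with Hamp2 lowest in mouse 1 and Hamp lowest in mouse 2. The group means were 6.68 ± 3.85 and 1.92 ± 2.18 FPKM (SD, n = 3 each), and the log2 difference was -1.53 (standard error 0.69). Without SIRT2-KOhep mouse 1 it was -1.01, and without mouse 3 it was -2.10.

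The balance between the hepcidin genes varied over all 6 livers with no split by genotype. The ratio of Hamp to Hamp2 was 33.1, 5.63 and 65.6 in LoxP mice 1 to 3 and 72.7, 2.44 and 31.3 in SIRT2-KOhep mice 1 to 3. Only 16.62% of the 50-base windows of the Hamp mRNA occur in that of Hamp2, so most fragments of the pair can be told apart, but how the authors assigned shared ones is not given in the sources used here.

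Of 32 genes that control hepcidin transcription, 2 were listed, and each differed in all 3 SIRT2-KOhep livers from all 3 LoxP livers. Smad9 encodes SMAD8, a signal carrier of bone morphogenetic protein receptors, and was at 4.9, 3.02 and 3.54 FPKM in LoxP mice and 1.09, 0.80 and 1.82 FPKM in SIRT2-KOhep mice. Its log2 difference was -1.11 (standard error 0.38), and its lowest values, as for Hamp, were in mice 2 and 1. Fgl1, a secreted liver protein known to bind bone morphogenetic protein 6 and lower hepcidin, went the other way, at 405.1, 331.26 and 250.42 FPKM in LoxP mice and 949.01, 1640.15 and 550.75 FPKM in SIRT2-KOhep mice. Its log2 difference was 1.55 (standard error 0.64). Groups that did not overlap were common in this selected table, with 23.4% of the 205 genes higher and 10.7% lower in every SIRT2-KOhep mouse. The ligands Bmp2 and Bmp6, the co-receptor Hjv, the protease Tmprss6 and the SMAD targets Id1, Smad6 and Smad7 were not listed.

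**Figure D1:**
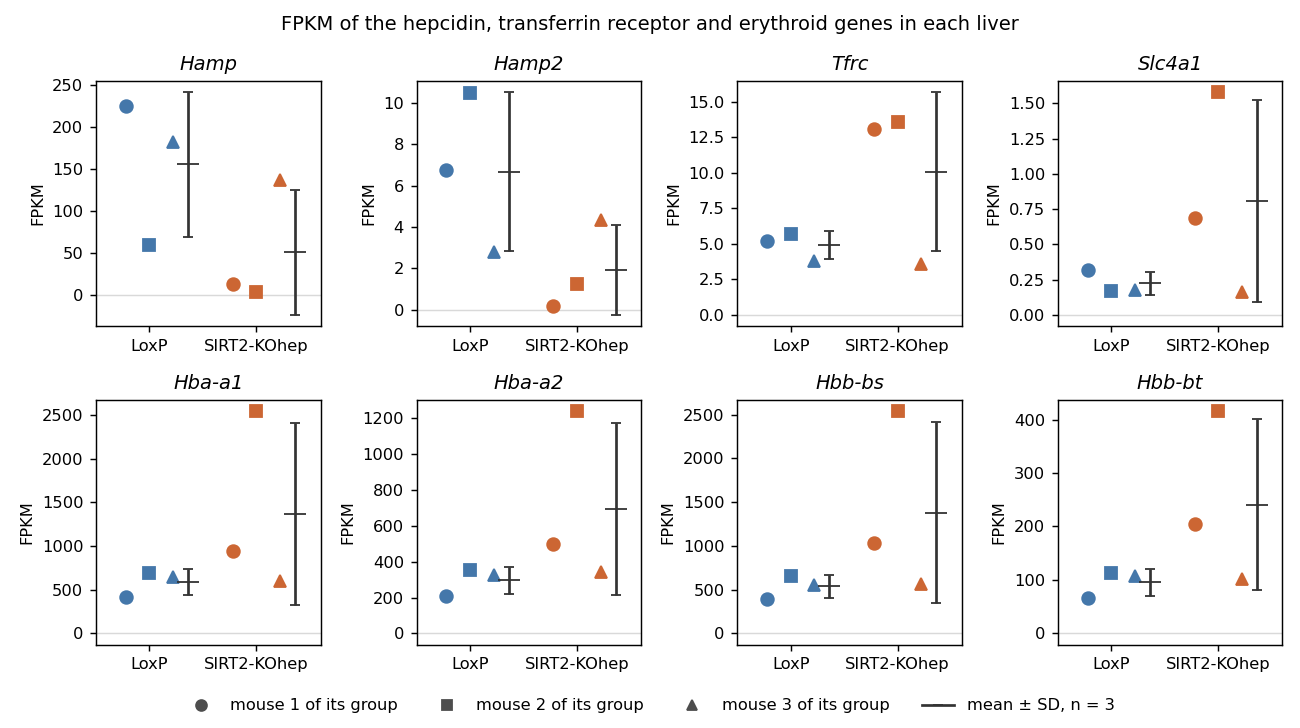
FPKM of the 8 genes in each liver, with LoxP mice in blue and SIRT2-KOhep mice in orange, marker shape giving the mouse number and bars the mean ± SD (n = 3), each panel on its own linear axis. SIRT2-KOhep mice 1 and 2 lie outside the LoxP range in all 8 panels, whereas mouse 3 lies within it in 6 and slightly below it for Tfrc and Slc4a1.

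Tfrc (Gene ID 22042), on chr16:32608920-32632794 of the plus strand with 19 exons, carries the hairpins through which cellular iron sets the stability of its mRNA. A search of annotated 3′ untranslated regions for the core pattern of such iron-responsive elements found 4 copies in Tfrc. The pattern was a C, 5 stem bases, the loop CAGTGN and 5 bases that pair with the stem, G-T pairs allowed. A hairpin that departs from this pattern would be missed, so 4 need not be the full number. Because iron regulatory proteins act through such hairpins, the 4 elements are shown with 6 bases on each side. They are read 5′ to 3′ on the plus strand of GRCm38 from chr16:32631219-32631247, chr16:32631598-32631626, chr16:32631663-32631691 and chr16:32631710-32631738, and capitals mark the loop.
Tfrc element 1: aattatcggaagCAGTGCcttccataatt
Tfrc element 2: cattatcgggagCAGTGTcttccataatg
Tfrc element 3: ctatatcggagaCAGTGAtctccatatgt
Tfrc element 4: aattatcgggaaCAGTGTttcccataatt
Element 1 begins 889 bases after the stop codon, and elements 2 to 4 follow within a short stretch at 1268, 1333 and 1380 bases. The pattern was present in the 3′ untranslated region of 112 of 20723 genes (0.54%), and Tfrc was the only gene with more than 1. No other listed gene had a match there.

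**Figure D2:**
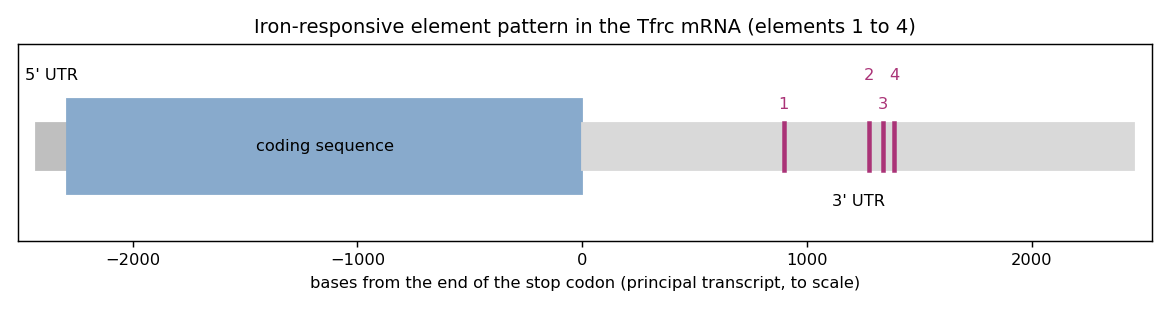
Map of the Tfrc mRNA to scale, in bases from the end of the stop codon, with the 5′ untranslated region, the coding sequence and the 3′ untranslated region of 2458 bases. Vertical bars mark elements 1 to 4 at 889, 1268, 1333 and 1380 bases.

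As deposited, Tfrc was higher in the 2 livers with the least Hamp and nowhere else. Its FPKM was 5.21, 5.69 and 3.82 in LoxP mice 1 to 3 and 13.08, 13.56 and 3.61 in SIRT2-KOhep mice 1 to 3. SIRT2-KOhep mice 1 and 2 were close to each other and above every LoxP mouse, at 2.67 and 2.76 times the LoxP mean, whereas mouse 3 was the lowest of the 6 livers. The group means were 4.91 ± 0.971 and 10.1 ± 5.61 FPKM (SD, n = 3 each). The log2 difference was 0.75 (standard error 0.57), and it was 0.49, 0.46 and 1.29 without SIRT2-KOhep mouse 1, 2 and 3. Its level was nearly the same in mice 1 and 2, unlike the globins. This depended on the scale, since after rescaling each library on the listed genes it was 12.4 FPKM in mouse 1 and 5.94 FPKM, within the LoxP range, in mouse 2, and the difference between groups was 0.07.

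Of 32 genes of iron uptake, storage and export, 5 were listed. All 5 had a higher mean log2 value in SIRT2-KOhep livers, as had 154 of all 205 genes. Besides Tfrc these were Lcn2 and Ltf, proteins of neutrophils that bind iron or iron carriers, and the metallothioneins Mt1 and Mt2, which bind zinc and copper. The median log2 difference of the 5 was 1.21, the value of Mt1, against 0.34 over all 205 genes and 0.75 for Tfrc. Lcn2, Mt1 and Mt2 were also counted among the listed acute phase genes. Lcn2, which hepatocytes also secrete in inflammation, was at 84.96, 45.7 and 20.61 FPKM in LoxP mice and 125.36, 1648.74 and 53.79 FPKM in SIRT2-KOhep mice. Mt1 was at 628.95, 158.4 and 228.59 FPKM in LoxP mice and 162.66, 2808.59 and 621.53 FPKM in SIRT2-KOhep mice. Both peaked in SIRT2-KOhep mouse 2, but in mouse 1, where Tfrc was nearly as high as in mouse 2, Mt1 was within the LoxP range. Transferrin (Trf), ferroportin (Slc40a1), the ferritins Fth1 and Ftl1, Slc11a2 and Hmox1 were not listed.

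The 4 globin genes lie in tandem pairs. Hba-a1 (Gene ID 15122, chr11:32283511-32284465) and Hba-a2 (Gene ID 110257, chr11:32296489-32297298) encode alpha-globin on the plus strand, 12023 bases apart. Hbb-bs (Gene ID 100503605, chr7:103826534-103828096) and Hbb-bt (Gene ID 101488143, chr7:103812524-103813996) encode adult beta-globin on the minus strand, 12537 bases apart. Coding sequences are 99.77% identical within each pair, and 67.54% of the 50-base windows of the Hba-a1 mRNA also occur in Hba-a2 and 65.8% of those of Hbb-bs in Hbb-bt. How fragments were divided within a pair is thus uncertain, and the sum of a pair is the firmer value.

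Compared without gaps at the best shift, the promoters were identical in 100% of 247 bases for the alpha pair and 51.0% of 249 for the beta pair. An inserted or missing base lowers such a value, so how alike the beta promoters are was not settled. The promoter of Hba-a2 and part of that of Hbb-bs are shown because the 4 genes moved together and share GATAA, the core recognised by the erythroid factor GATA1, once each in the 250 bases before the start. They are RefSeq sequences of GRCm38.p6 read 5′ to 3′, from chr11:32296292-32296488 on the plus strand and chr7:103828097-103828148 on the minus strand, with GATAA in capitals.
Hba-a2: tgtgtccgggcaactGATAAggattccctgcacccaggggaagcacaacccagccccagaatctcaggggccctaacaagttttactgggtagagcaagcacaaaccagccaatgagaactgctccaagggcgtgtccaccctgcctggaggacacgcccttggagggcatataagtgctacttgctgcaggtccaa
Hbb-bs: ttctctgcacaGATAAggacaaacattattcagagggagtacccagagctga
The first base of GATAA lies 182 and 185 bases before the start of Hba-a1 and Hba-a2, and 209 and 204 bases before that of Hbb-bs and Hbb-bt. On either strand, GATAA was present in 23.0% of RefSeq promoters, including both hepcidin genes on the opposite strand. CCNCNCCC, the motif of the erythroid factor KLF1, was present once in each beta-globin promoter and in neither alpha-globin promoter, against 45.6% of all promoters.

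Hba-a1 and Hbb-bs were the most abundant transcripts of the set in every liver, whereas Hba-a2 and Hbb-bt were not always above Hamp. Hba-a1 was at 414.86, 692.83 and 649.45 FPKM in LoxP mice 1 to 3 and at 941.49, 2548.59 and 595.02 FPKM in SIRT2-KOhep mice 1 to 3. Hbb-bs was at 393.74, 657.42 and 556.72 FPKM in LoxP mice and at 1032.39, 2546.09 and 562.64 FPKM in SIRT2-KOhep mice. In both genes mouse 2 was far above every other liver, mouse 1 was above the LoxP range, and mouse 3 lay within it. The copies were lower, with Hba-a2 at 209.71, 355.31 and 324.41 FPKM in LoxP mice and 501.67, 1243.61 and 340.9 FPKM in SIRT2-KOhep mice. Hbb-bt was at 66.25, 113.31 and 106.83 FPKM in LoxP mice and 203.68, 416.63 and 102.45 FPKM in SIRT2-KOhep mice. The order of the SIRT2-KOhep mice was the same in all 4 genes.

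Summed over the 4 genes, globin was at 1085, 1819 and 1637 FPKM in LoxP mice 1 to 3 and at 2679, 6755 and 1601 FPKM in SIRT2-KOhep mice 1 to 3, which is 1.77, 4.46 and 1.06 times the LoxP mean. The log2 differences were 0.98 (standard error 0.72) for Hba-a1, 1.04 (0.68) for Hba-a2, 1.12 (0.73) for Hbb-bs and 1.14 (0.68) for Hbb-bt. Without SIRT2-KOhep mouse 2 they were 0.39, 0.51, 0.54 and 0.63, so a single liver carried much of each. In a bulk library fewer cells of a type and less RNA per cell cannot be told apart, and the amount of blood in each liver was not measured.

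Within a liver the globins kept nearly fixed proportions while their sum varied. The alpha to beta ratio was 1.36, 1.36 and 1.47 in LoxP mice and 1.17, 1.28 and 1.41 in SIRT2-KOhep mice. The ratio of Hba-a1 to Hba-a2 stayed between 1.75 and 2.05, and that of Hbb-bs to Hbb-bt between 5.07 and 6.11, over the 6 livers. The shares of copies within a pair also depend on how shared fragments were divided.

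Slc4a1 (Gene ID 20533), on chr11:102348824-102366203 of the minus strand with 20 exons, encodes band 3, the anion exchanger of the red cell membrane. It was scarce, at 0.32, 0.17 and 0.18 FPKM in LoxP mice 1 to 3 and at 0.69, 1.58 and 0.16 FPKM in SIRT2-KOhep mice 1 to 3. SIRT2-KOhep mice 1 and 2 were above every LoxP mouse, at 3.09 and 7.07 times the LoxP mean, and mouse 3 was the lowest of all. The group means were 0.223 ± 0.0839 and 0.81 ± 0.718 FPKM (SD, n = 3 each). The log2 difference was 0.49 (standard error 0.30), a value held down by the pseudocount of 1, and it was 0.20 without SIRT2-KOhep mouse 2 and 0.77 without mouse 3. With a pseudocount of 0.1 it was 1.15.

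Slc4a1 did not keep a fixed proportion to globin. The ratio of summed globin to Slc4a1 was 3389, 10699 and 9097 in LoxP mice 1 to 3 and 3883, 4275 and 10006 in SIRT2-KOhep mice 1 to 3. It was low in SIRT2-KOhep mice 1 and 2 but also in LoxP mouse 1, which had the least globin and the most Slc4a1 of its group. At values this close to the last printed decimal the ratio is coarse.

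Of the other listed genes of the erythroid lineage, Isg20 is described here, an exonuclease made in late erythroid cells and also induced by interferon. It was at 2.54, 1.99 and 2.07 FPKM in LoxP mice and 4.37, 7.11 and 2.69 FPKM in SIRT2-KOhep mice, and its groups did not overlap. Mouse 2 was highest and mouse 1 next, as for Slc4a1, but mouse 3 was just above the LoxP range and not below it. Of 48 erythroid genes, the globins counted apart, 4 were listed, Slc4a1 included, and only Isg20 had groups that did not overlap. Over all 205 genes, 23.4% were higher without overlap. In SIRT2-KOhep mouse 3, 2 of the 4 erythroid genes were below every LoxP mouse and 1 was above. The log2 difference of Isg20 was 0.77 (standard error 0.43), against a median of 0.34 over all 205 genes. Alas2, Klf1, Gata1, Ahsp, Hemgn and Epb42, and all 11 genes of haem synthesis, were not listed.

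**Figure D3:**
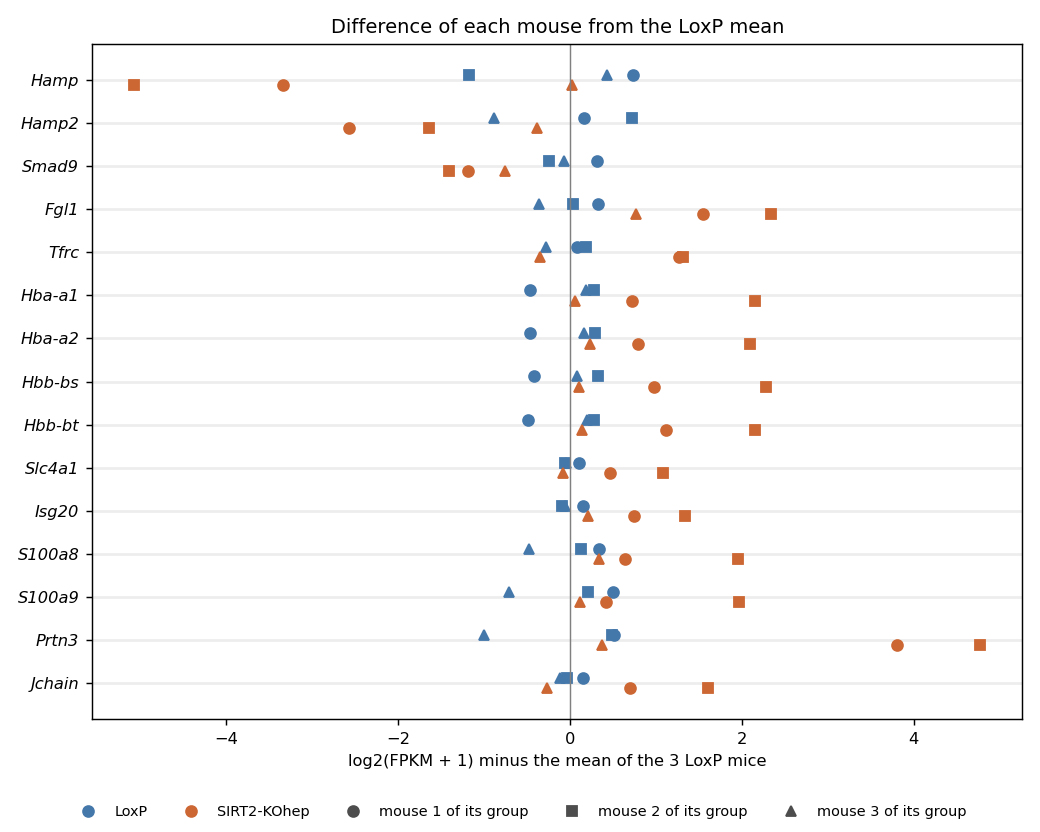
Difference of each mouse from the mean of the 3 LoxP mice on the log2(FPKM + 1) scale, for the 8 genes, the listed genes of hepcidin control, Isg20 and 4 leukocyte genes. Hamp reaches -3.34 and -5.07 in SIRT2-KOhep mice 1 and 2 and 0.02 in mouse 3, and the globins and Slc4a1 lie to the right in mice 1 and 2 and near 0 in mouse 3.

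Set side by side, hepcidin was low and the other members high in the same livers. SIRT2-KOhep mice 1 and 2 lay outside the LoxP range for 8 of 8 members, 6 above and 2 below. SIRT2-KOhep mouse 3 was above it for 0 members and below it for 2, Tfrc and Slc4a1. The groups were separate for 0 of 8 members, against 34.1% of the 205 genes. Over all listed genes, SIRT2-KOhep mouse 1 was above the LoxP range for 49.8% and below it for 21.5%, mouse 2 for 67.8% and 19.5%, and mouse 3 for 37.1% and 19.0%. As the members were selected on this pattern, nothing is read from these counts.

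The order of the livers, which itself depends on how the libraries are scaled, was compared between members. In FPKM as deposited, by falling Hamp the livers ran LoxP 1, LoxP 3, SIRT2-KOhep 3, LoxP 2, SIRT2-KOhep 1 and SIRT2-KOhep 2. For Hba-a2 and Hbb-bs the deposited values stood in the exact reverse order, in all 15 pairs of livers. The number of reversed pairs was 14 for Hba-a1 and Hbb-bt, 12 for Tfrc and 10 for Slc4a1. Over the other 204 listed genes the median was 9.5 of 15, and 9 genes, among them the 4 globins, reached at least 14. The listed genes that were lower in SIRT2-KOhep livers pulled this median down. Because the members were chosen for running opposite to hepcidin in these livers, nothing is read from their place among the 204 genes. Among the LoxP mice, mouse 2 had the least Hamp and the most globin, and mouse 1 the most Hamp and the least globin. Tfrc was lowest in SIRT2-KOhep mouse 3 and LoxP mouse 3, neither of which had the most Hamp. For Hamp2, 10 of 15 pairs stood in the order of Hamp. After rescaling each library on the listed genes the exact reversal was lost, with 13 reversed pairs for Hbb-bs, 12 for Hba-a1, Hba-a2 and Hbb-bt, 10 for Slc4a1 and 9 for Tfrc. LoxP mouse 3, not mouse 2, then had the most of each globin among the LoxP mice.

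**Figure D4:**
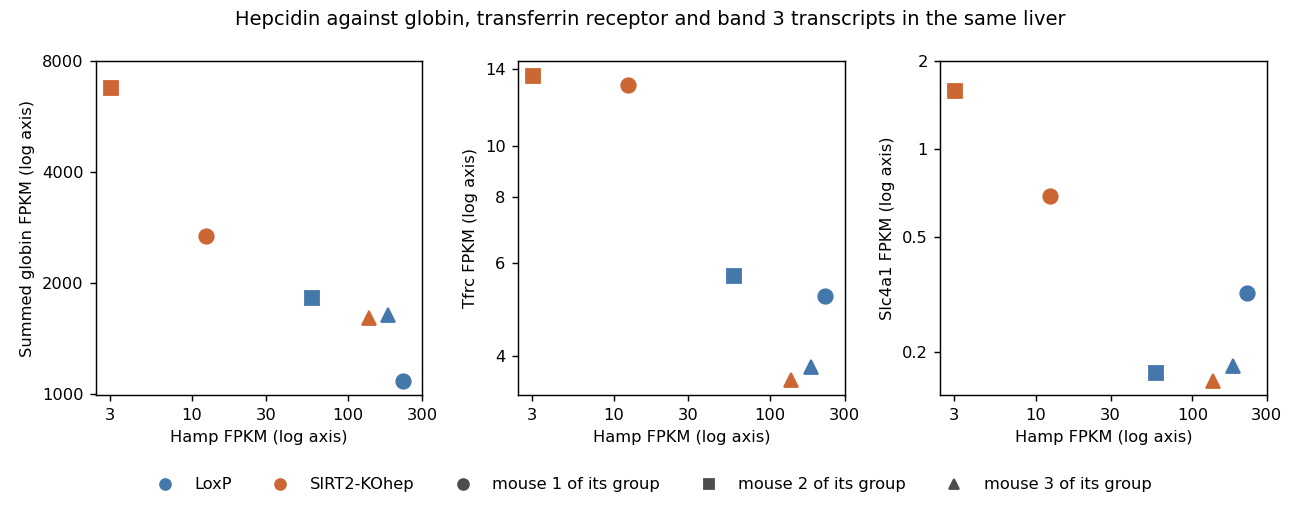
Summed globin, Tfrc and Slc4a1 FPKM (vertical) against Hamp FPKM (horizontal) in each of the 6 livers, both axes logarithmic, with LoxP mice in blue and SIRT2-KOhep mice in orange. SIRT2-KOhep mice 1 and 2, at 12.36 and 3.03 FPKM of Hamp, hold the highest values of all 3 measures, and mouse 3 lies among the LoxP mice.

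Other blood and inflammatory genes moved in the same livers. Of 29 leukocyte genes 10 were listed, all with a higher mean in SIRT2-KOhep livers, as for 154 of all 205 genes. Relative to the LoxP mean their median was 0.67, 1.47 and 0.04 higher on the log2 scale in SIRT2-KOhep mice 1 to 3. Over all 205 genes the corresponding medians were 0.08, 0.50 and 0.06. The summed level of the 10 leukocyte genes, much of it Lcn2, ranged from 31.9 to 108 FPKM in LoxP livers and from 72.5 to 1788 FPKM in SIRT2-KOhep livers. Lcn2 and Ltf were also counted among the iron genes above. Prtn3, proteinase 3 of neutrophil granules and their precursors, was at 2.83, 2.78 and 0.34 FPKM in LoxP mice and 36.75, 72.58 and 2.48 FPKM in SIRT2-KOhep mice. S100a8, an abundant calcium-binding protein of neutrophils, was at 5.83, 4.93 and 2.89 FPKM in LoxP mice and 7.42, 20.04 and 5.84 FPKM in SIRT2-KOhep mice. Prtn3 was thus high in mice 1 and 2, like Tfrc, whereas S100a8 in mouse 1 was only just above the LoxP range. Of the 10, only Camp was listed at 0, in LoxP mouse 2. None of 12 platelet, 13 Kupffer cell and 11 sinusoidal endothelial genes was listed, so those cells were not followed.

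Acute phase genes, which inflammation drives in hepatocytes along with hepcidin, stood highest, by their median, in the livers with little hepcidin. Of 32 such genes 12 were listed, all with a higher mean in SIRT2-KOhep livers, as for 154 of all 205 genes. Among the 12 were Fgl1, Lcn2, Mt1 and Mt2, named above. Relative to LoxP the median log2 difference of the 12 was 1.14, 3.19 and 0.56 in SIRT2-KOhep mice 1 to 3. Over all 205 genes it was 0.08, 0.50 and 0.06. The summed level of the 12 ranged from 2510 to 3845 FPKM in LoxP livers and from 4516 to 30292 FPKM in SIRT2-KOhep livers. Saa1, serum amyloid A, was at 204.88, 124.61 and 113.18 FPKM in LoxP mice and at 483.59, 6107.51 and 192.53 FPKM in SIRT2-KOhep mice. The part of blood content, leukocytes or inflammation in the values of the 8 members was not tested. Of 18 hypoxia genes only Car9 was listed, with at most 0.89 FPKM, and of 26 genes of the cell cycle only Cdkn1a.

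The values also depended on how the libraries were scaled, most of all in SIRT2-KOhep mouse 2. Dividing each library by a factor, the median ratio to the average liver of the 152 listed genes above 0 in every mouse, meant a factor of 2.28 for this mouse and between 0.675 and 1.06 for the other 5. This moved the median log2 difference of all listed genes from 0.34 to 0.12. These are selected genes of which most were higher in SIRT2-KOhep livers, so the factor also takes up part of any difference between genotypes.

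After rescaling, hepcidin stayed low and the other members drew nearer to the LoxP mice. The log2 difference of Hamp was -3.81, -6.25 and -0.23 in SIRT2-KOhep mice 1 to 3, and between groups it was -3.43. Tfrc stayed above the LoxP range of 5.66 to 7.08 FPKM in SIRT2-KOhep mouse 1 but turned direction in mouse 2 (-0.09 in place of 1.32). The differences between groups became 0.21, 0.27, 0.35 and 0.37 for Hba-a1, Hba-a2, Hbb-bs and Hbb-bt, and 0.21 for Slc4a1. In SIRT2-KOhep mouse 2 all 4 globins and Slc4a1 still exceeded every LoxP mouse. In mouse 1 Hba-a1 (889 against a LoxP maximum of 962 FPKM) and Hba-a2 (474 against 481) came within the LoxP range, whereas Hbb-bs, Hbb-bt and Slc4a1 did not. In mouse 3 the globins turned from slightly above to slightly below the LoxP mean.

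**Figure D5:**
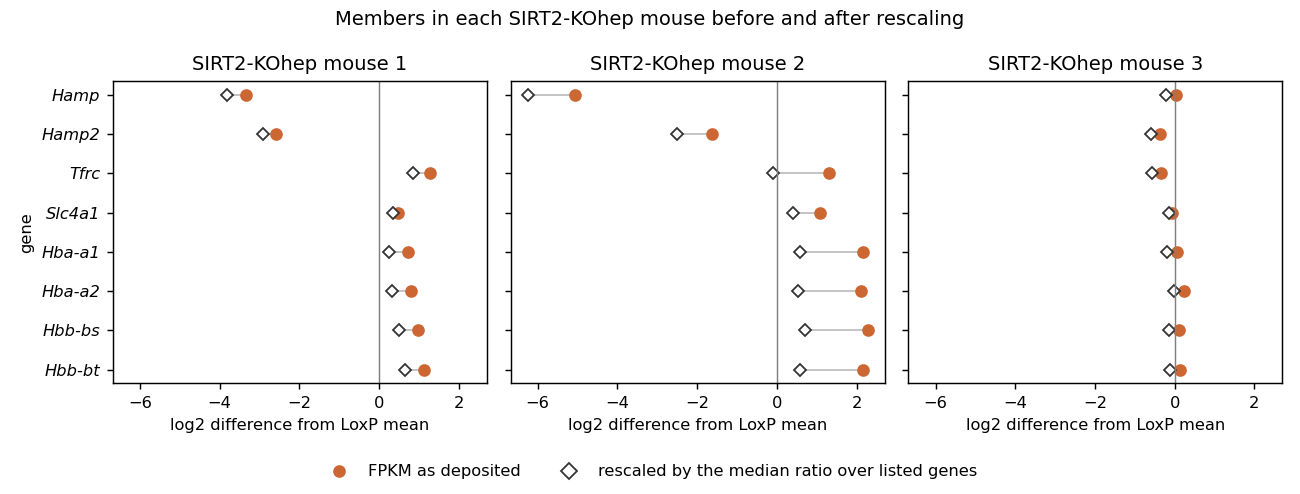
Log2 difference from the LoxP mean of the 8 genes in each SIRT2-KOhep mouse, as deposited (filled circles) and after the libraries were rescaled on the listed genes (open diamonds). Hamp and Hamp2 stay far to the left in mice 1 and 2, while Tfrc in mouse 2 moves from 1.32 to -0.09.

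The listed genes whose profile over the 6 livers was nearest to a member were ranked among the 108 genes that averaged 1 FPKM or more, by the mean absolute difference between profiles in SD units. Nearest to Hamp were Tbc1d30 (0.33), Mup12 (0.35), Smad9 (0.36), Ptgds (0.39) and Mup1 (0.43), all lower in SIRT2-KOhep livers. Among the nearest to its mirror image were Dnajc12 (0.18), Apcs (0.20), Slc41a2 (0.21) and Hbb-bs (0.22). Apcs, serum amyloid P, was at 79.33, 88.96 and 79.08 FPKM in LoxP mice and 273.11, 415.36 and 116.86 FPKM in SIRT2-KOhep mice. Among the nearest to Tfrc were Prtn3 (0.22), Pdk4 (0.29), Jchain (0.33) and Slc13a5 (0.35), and nearest to its mirror image were Ptgds (0.24), Hamp (0.30), Mup12 (0.40), Slc13a2 (0.44) and Smad9 (0.47). Among the nearest to Slc4a1 were Jchain (0.06), Saa1 (0.14), Isg20 (0.18) and Saa2 (0.19), and nearest to its mirror image were Mup12 (0.11), Mup7 (0.18), Mup1 (0.20), Mup8 (0.32) and Selenbp2 (0.32). Jchain was thus among the 5 nearest to both Tfrc and Slc4a1. With 6 livers, of which SIRT2-KOhep mice 1 and 2 set most of each profile, such likeness is a description of these samples.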

How the data were processed

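RNA from liver tissue of 6 mice, 1 library per mouse, was sequenced on the DNBSEQ platform after mRNA enrichment or removal of ribosomal RNA. The deposited table gives 205 selected genes in FPKM, computed by the authors and rounded to 2 decimals, with 1 column per mouse. Their processing notes name the build mm10. The aligner, the counting and the rule of selection are not given in the sources used here. Symbols were taken from a RefSeq table of GRCm38.p6 for 203 of 205 Gene IDs. Low values of short genes did not give whole reads (36.4 to 50.0% of 8 to 13 genes per mouse at the best depth), so depth and counting error are unknown.

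Values were transformed to log2(FPKM + 1). A model with 1 term for genotype was fitted to all 205 genes with limma 3.58.1 in R 4.3.3 (eBayes with trend), with Benjamini-Hochberg adjustment and a threshold of 0.05. The fit was tested on simulated data. Tables, sequence searches and plots used Python 3.11.15, pandas 2.3.3, Biopython 1.88 and matplotlib 3.10.9. The members and gene lists were chosen with earlier results of these data known. Named genes were the 8 members, Sirt2, listed genes of hepcidin control, iron handling and the erythroid lineage, examples from the other lists, and the 5 genes nearest to Hamp, Tfrc and Slc4a1 and to their mirror images, of which some are not reported here. Mup7 was added after its values were seen. Promoters were found for 7 of the 8 members in RefSeq (not for Slc4a1). Alternatives were other pseudocounts, a minimum mean of 1 FPKM, no trend, rescaling, unadjusted p-values, a block for the replicate number, and leaving out each mouse.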

Additional observations from a re-analysis of the deposited data

How the results depend on the processing

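The sign of each member's difference between groups was kept under every alternative tried, though not its size. There were 12 alternatives for each gene and 11 for Slc4a1, which fell under the minimum mean of 1 FPKM. The size moved by more than the spread within groups for Slc4a1 with a pseudocount of 0.1 (1.15) or 0.01 (1.36). It did so too for Hamp2 with 0.01 (-2.55) and for Hba-a2 after rescaling (0.27). Within that wide spread, rescaling took Tfrc from 0.75 to 0.07 (standard error 0.44) and Hba-a1 from 0.98 to 0.21. Likewise Hbb-bs went from 1.12 to 0.35 and Hbb-bt from 1.14 to 0.37. In limma 0 genes passed the adjusted threshold of 0.05, and 22 passed it unadjusted. The count was 1 without the trend (Sirt2) and 0 to 2 when each mouse was left out, the 2 being called without SIRT2-KOhep mouse 2. Rescaling changed those that passed unadjusted from 13 higher and 9 lower to 5 higher and 29 lower, and all listed genes from 154 higher and 51 lower to 149 and 56.

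With the replicate number as a block, 0 genes passed the adjusted threshold and 17 the unadjusted one. The labels do not say whether the numbers pair the mice. The correlations of their deviations from the group means were -0.19, 0.03 and 0.34. With so few mice per group such values cannot settle whether the mice were paired. With no read counts, how precise low values such as those of Slc4a1 are is unknown.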
